A study of Homo sapiens with 8 samples.

Results

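The glycolysis, hexose phosphate and hypoxia genes of OAW42-R cells are described here as a list of 47 genes, read on 8 arrays with the long noncoding RNA UCA1 silenced or not. The list holds transporters of glucose and lactate, the enzymes from hexokinase to lactate dehydrogenase, the PFKFB enzymes, pyruvate dehydrogenase kinases, phosphoglucomutases, pentose phosphate enzymes, and the subunits, regulators and targets of the hypoxia-inducible factors (HIF). Members were taken by gene symbol, reached through the RefSeq accession that the array gives for each probe. The list was chosen with the values of this same contrast already known, and PGM2L1 was on it as a gene known to rise on these arrays. Member values are therefore given as a description without p-values, and their counts are set beside the share of all genes and used as support for nothing.

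Of the 47 members, 46 had at least 1 probe (59 probes in all), and 42 were bright enough to be compared, among 15454 genes compared in the series. ALDOA matched no probe through the accessions. SLC2A12, EGLN3 and CA9 were well above background on 0 of 8 arrays, and SLC2A3 was so on 1 of 4 sictrl arrays and 0 of 4 siUCA1 arrays, so that no fold change is given for these 4 genes.

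OAW42-R is a cisplatin-resistant line derived from OAW42 ovarian carcinoma cells, and it was the only line on these arrays. In the sictrl condition the cells received a pool of nontargeting siRNAs, and in the siUCA1 condition they received 2 siRNAs against UCA1, numbers 2 and 4, together. Both conditions shared the same medium, with 4500 mg/l glucose, 1 mM pyruvate, insulin and 10% serum, the same transfection reagent and 20 nM siRNA. RNA was extracted 24 h after transfection according to the labels. The methods text names a later time. Each condition had 4 arrays, named A1, M2, A2 and A3, from independent experiments, and the labels name no change in oxygen for either condition.

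Glycolysis splits glucose into pyruvate in the cytosol, and lactate dehydrogenase turns pyruvate into lactate, which monocarboxylate transporters carry out of the cell. Hexokinase and phosphofructokinase are the regulated steps at its start, and glucose 6-phosphate also feeds glycogen through the phosphoglucomutases and nucleotide precursors through the pentose phosphate pathway. HIF is a transcription factor whose alpha subunits are hydroxylated by the EGLN enzymes and then degraded when oxygen is present, and it raises many glycolytic genes. Cancer cells, ovarian carcinoma included, often run glycolysis at a high rate even with oxygen.

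Values are log2 of the processed intensity over its 75th percentile among the non-control spots of the same array, so that 0 is the brightness of that percentile. The brightest kept probe stood for a gene, and brightness is not compared between probes. UCA1 itself, the target of the siRNAs, averaged 8.20 ± 0.49 over the sictrl arrays and 3.16 ± 0.47 over the siUCA1 arrays (SD, n = 4 each), and thus fell by 5.04 (adjusted p = 0.000122, limma). All arrays lay on 1 slide and were scanned in 1 run. Between 20858 and 24039 spots of an array were well above background. Feature Extraction fits and removes a trend in brightness over the array surface, and this trend was 0.321 on sictrl A3 and 0.287 on siUCA1 A1, against 0.0737 to 0.0943 on the other arrays. Results that rest on these 2 arrays are given with and without them. Of 8 epithelial and ovarian markers, 6 were well above background on all 8 arrays (EPCAM, PAX8 and 4 keratins), while MUC16 and WT1 were so on 0. Among markers of other cells, CD14 and VWF were well above background on all 8 arrays, and CD3E, CDH5, COL1A2, DCN and PDGFRB on 0.

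Across the list, the log2 fold changes (siUCA1 minus sictrl) were centered near 0. The median over the 42 members compared was 0.007, with 22 positive and 20 negative, against a median of 0.03 over all 15454 genes. With limma and the Benjamini-Hochberg correction over all genes, 3 members were higher in siUCA1 at an adjusted p under 0.05 (PGM2L1, SLC16A1 and TKT), while 5.72% of all genes were higher, and 2 members were lower (HK2 and PFKFB4), while 5.85% of all genes were lower. The remaining 37 members did not pass. PGM2L1 and PFKFB4 met the detection filter only through the condition in which they were brighter, so that a difference was built into their being compared. The 4 siUCA1 values all lay above the 4 sictrl values for 5 members, compared with 11.2% of all genes, and all lay below for 3 members, compared with 9.67% of all genes.

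**Figure D1:**
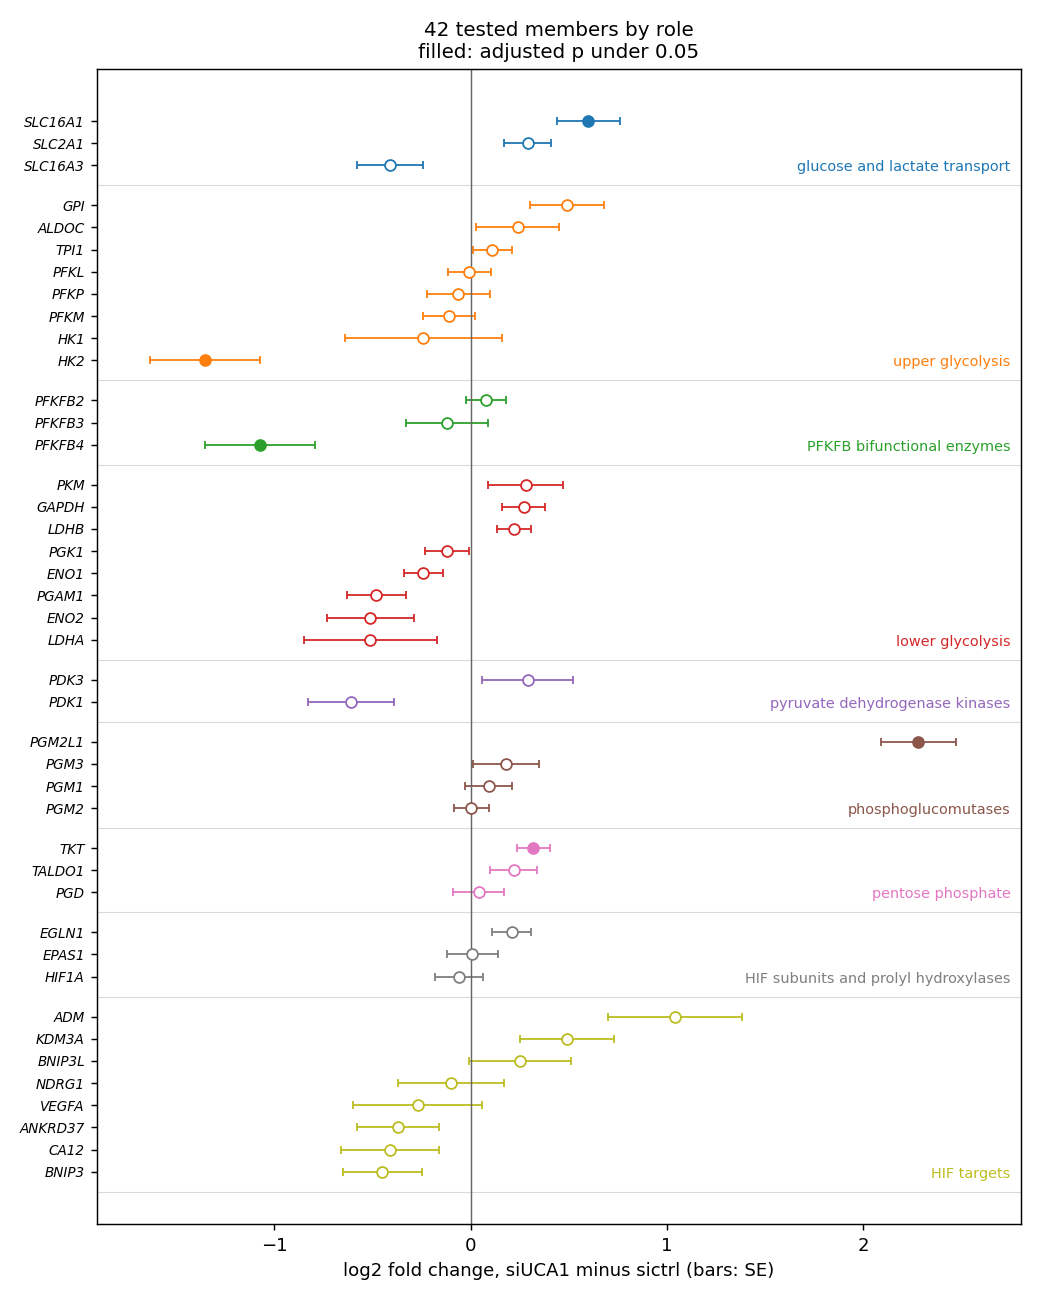
Log2 fold change (siUCA1 minus sictrl, x axis) of the 42 members compared, grouped by role, with bars for limma's moderated standard error (4 arrays per condition). Filled points passed an adjusted p of 0.05: PGM2L1 at 2.28, SLC16A1 at 0.60, TKT at 0.32, HK2 at -1.35 and PFKFB4 at -1.07, and members of most roles lie on both sides of 0.

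Of the 5 transporters, 3 were compared. SLC16A1, the monocarboxylate transporter MCT1, was at 0.70, 0.58, 0.77 and 0.46 on sictrl arrays A1, M2, A2 and A3 and at 0.79, 1.23, 1.39 and 1.51 on the corresponding siUCA1 arrays. The conditions did not overlap, although siUCA1 A1 was only 0.02 above the highest sictrl array. The log2 fold change was 0.60 (standard error 0.16), which corresponds to a 1.52-fold rise, and with 1 array left out it passed only without siUCA1 A1 (0.75). SLC2A1, the glucose transporter GLUT1, had a log2 fold change of 0.29 (standard error 0.12) without overlap, and SLC16A3, the lactate exporter MCT4, had one of -0.41 (standard error 0.17) with overlap, and neither passed.

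Among the enzymes that take glucose to triose phosphates, HK2 was the only one of 8 compared that passed. HK2, a hexokinase that binds mitochondria and is raised in many tumors, was at 0.61, 0.76, 0.71 and 1.56 on sictrl A1, M2, A2 and A3 and at 0.03, -0.72, -0.97 and -0.08 on siUCA1. The lowest sictrl value was thus above the highest siUCA1 value, with sictrl A3 standing above the other control arrays. HK2 fell by 1.35 (log2, standard error 0.28), to a 2.54-fold lower signal. It did not pass without siUCA1 M2 (-1.25) or without siUCA1 A2 (-1.17), and it passed with any other array left out. After normexp background correction it was -0.86 and did not pass, nor did it in the plain two-sample test. A second HK2 probe was well above background on 0 of 8 arrays.

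HK1, the hexokinase present in most tissues, had a log2 fold change of -0.24 with a standard error of 0.40, since siUCA1 A1 was at 1.98 and the other siUCA1 arrays between 3.61 and 3.75. Of the 3 phosphofructokinase subunits, PFKL, PFKM and PFKP, the log2 fold changes lay between -0.11 and -0.01. The isomerases GPI (0.49, standard error 0.19) and TPI1 (0.11) and the aldolase ALDOC (0.24, but 0.01 without sictrl A1) did not pass.

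The PFKFB enzymes make and break the fructose bisphosphate that activates phosphofructokinase. PFKFB4 was at -1.82, -0.83, -0.87 and -0.55 on sictrl A1, M2, A2 and A3 and at -1.95, -2.59, -2.01 and -1.79 on siUCA1. Sictrl A1 lay among the siUCA1 arrays and the other 3 sictrl arrays lay above all of them. PFKFB4 fell by 1.07 (standard error 0.28), although its probe was well above background on only 2 of 4 siUCA1 arrays. It met the detection filter only through sictrl, its brighter condition, and the size is uncertain. After normexp background correction the log2 fold change was -0.35 and did not pass. When 1 array was left out it passed only without sictrl A1, with a log2 fold change of -1.34. PFKFB2 (0.08) and PFKFB3 (-0.12) changed by less than their standard errors of 0.10 and 0.21.

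In the later steps of glycolysis, 0 of 8 members passed, with log2 fold changes from -0.51 (LDHA) to 0.28 (PKM, pyruvate kinase), and 5 of the 8 had an unadjusted p under 0.05, as did 27.6% of all genes. LDHA, the lactate dehydrogenase subunit that favors lactate formation, was at 8.52, 8.50, 8.57 and 7.43 on sictrl A1, M2, A2 and A3 and at 6.89, 8.08, 8.08 and 7.93 on siUCA1. Its low values were on sictrl A3 and siUCA1 A1, the arrays with the strongest surface trend. Without both of them the log2 fold change was -0.50 and passed, but it was -0.79 without sictrl A3 alone and -0.23 without siUCA1 A1 alone, and passed in neither. A second, dimmer LDHA probe changed by -0.59, with sictrl between 5.79 and 6.39 and siUCA1 between 5.36 and 5.88. This probe was lowest of sictrl on A3, but at 5.67 on siUCA1 A1 it was within the range of the other siUCA1 arrays.

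LDHB, the other main subunit, did not overlap between conditions at its brightest probe and was slightly higher in siUCA1 (0.22, standard error 0.09). A second LDHB probe was 0.19 higher, with overlap. PGAM1, phosphoglycerate mutase, was lower on all siUCA1 arrays than on any sictrl array, with log2 fold changes of -0.48 and -0.44 at its 2 probes, and it passed without both of the arrays with the strongest trend. ENO1, the main enolase, also did not overlap (-0.24, standard error 0.10). ENO2, the neuronal enolase, was at -0.87, -0.40, 0.07 and 0.22 on sictrl A1, M2, A2 and A3 and at -0.78, -0.88, -0.70 and -0.64 on siUCA1. Its log2 fold change was -0.51 (standard error 0.22), and sictrl A1 was within the siUCA1 range. GAPDH (0.27) and PGK1 (-0.12), which produce NADH and ATP in this stretch, did not pass.

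PDK1 and PDK3 are kinases that shut the pyruvate dehydrogenase complex. PDK1 was at -0.61, 0.28, 0.06 and 0.43 on sictrl A1, M2, A2 and A3 and at -0.36, -0.75, -0.68 and -0.50 on siUCA1. Again 3 of the sictrl arrays lay above all siUCA1 arrays and sictrl A1 did not. The log2 fold change of -0.61 (standard error 0.22) did not pass, and was -0.83 and passed without sictrl A1. PDK3 had log2 fold changes of 0.29 and -0.03 at its 2 probes.

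A phosphoglucomutase relative was among the members that rose. PGM2L1, which makes the glucose bisphosphate that phosphoglucomutases need as a cofactor, was at -3.03, -3.28, -3.08 and -2.58 on sictrl A1, M2, A2 and A3 and at -1.12, -0.47, -0.76 and -0.51 on siUCA1. Every siUCA1 array was thus at least 1.46 above every sictrl array. PGM2L1 rose, with a fitted log2 fold change of 2.28 (standard error 0.19). The size is uncertain, since the sictrl side was dim, with the probe well above background on only 1 of 4 arrays. PGM2L1 met the detection filter only through siUCA1, its brighter condition. With each array's dim values raised to its detection limit, meaning the faintest signal that counted as well above background there, the log2 fold change was 2.11. It was 0.85 after normexp background correction, and it passed with any array left out (2.18 to 2.41).

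The other phosphoglucomutases did not pass. PGM1, the main enzyme between glucose 1-phosphate and glucose 6-phosphate, had a log2 fold change of 0.09 (standard error 0.12). PGM2, which acts on pentose phosphates, averaged 1.59 ± 0.07 over the sictrl and 1.59 ± 0.08 over the siUCA1 arrays (SD, n = 4 each). PGM3, an enzyme of hexosamine synthesis, had log2 fold changes of 0.18 and 0.23 at its 2 probes. The brighter probe was at 4.64 on sictrl A3 and at 3.86 to 3.99 on the other sictrl arrays, and it passed without sictrl A3 (0.36). The second probe was not apart there, at 2.56 against 2.46 to 2.55.

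Of the pentose phosphate enzymes, TKT, the transketolase that exchanges carbon units between sugar phosphates, was at 8.44, 8.41, 8.51 and 8.53 on sictrl A1, M2, A2 and A3 and at 8.80, 8.73, 8.79 and 8.84 on siUCA1. The change was small and very even, with SDs of 0.06 and 0.05 at the 4.76th and 2.49th percentiles of all genes. TKT rose by 0.32 (standard error 0.08), a 1.25-fold increase, and passed with 1 array left out only without sictrl A3 (0.34) or without siUCA1 A1 (0.32). With each array scaled to its median it was 0.18 and did not pass. TALDO1, transaldolase, had a log2 fold change of 0.22 (standard error 0.12), and PGD, the oxidative enzyme, of 0.04 (standard error 0.13).

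**Figure D2:**
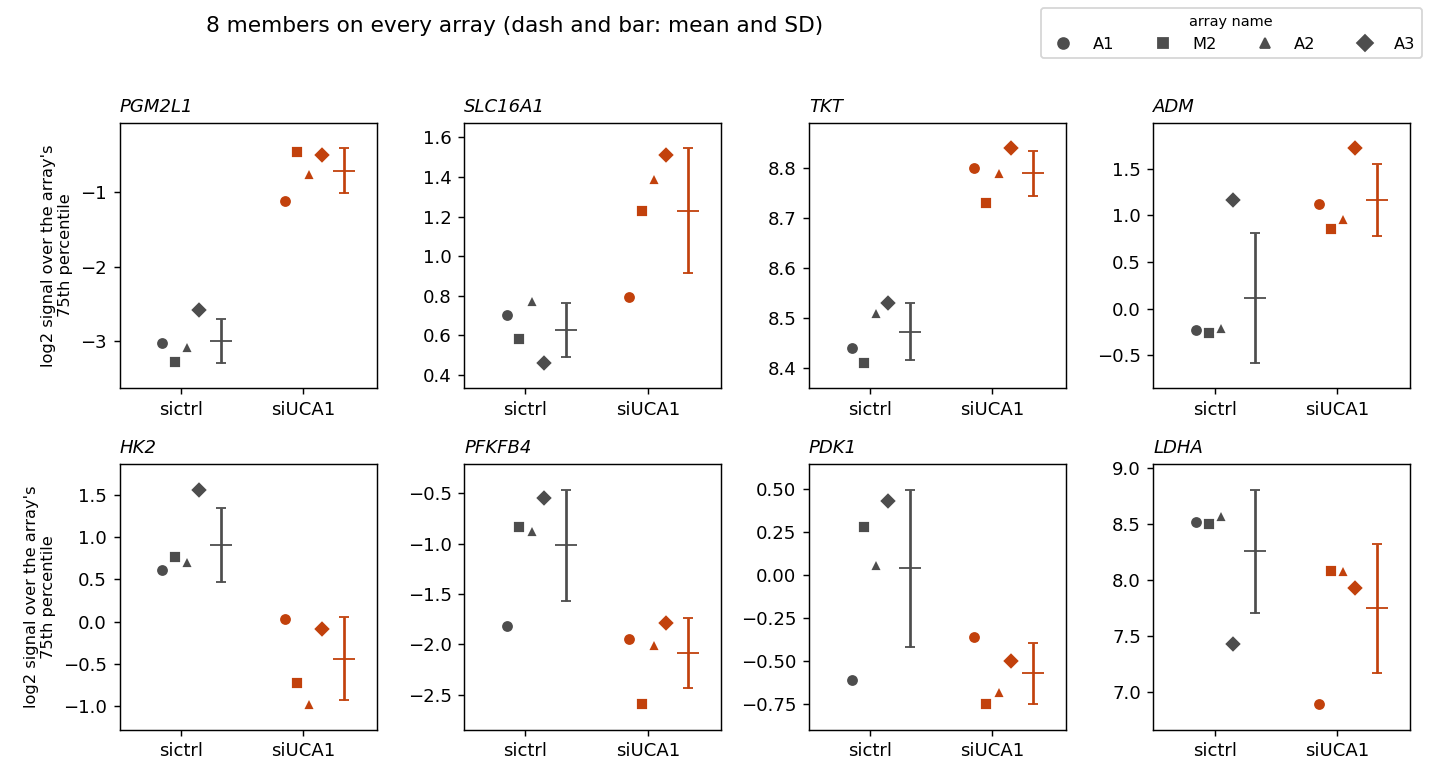
Log2 intensity over the array's 75th percentile (y axes, a range of its own for each gene) of 8 members on the 4 sictrl (grey) and 4 siUCA1 (orange) arrays, with a symbol for each array name and the mean and SD beside them. PGM2L1, SLC16A1, TKT and HK2 do not overlap between conditions, sictrl A1 is the low sictrl array of PFKFB4 and PDK1, and sictrl A3 is apart for ADM, HK2 and LDHA.

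The HIF subunits and their hydroxylase showed small differences. HIF1A had a log2 fold change of -0.06 (standard error 0.12) at a probe with 10 spots and of -0.01 at a second probe, EPAS1, which encodes the HIF-2 alpha subunit, of 0.01 (standard error 0.13), and EGLN1, the main HIF prolyl hydroxylase, of 0.21 (standard error 0.10). None of the 3 passed with limma, and 0 had an unadjusted p under 0.05. On siUCA1 A1 the HIF1A spots had an SD of 0.88, with the lowest at 2.92 and the median at 5.37. For each member with 10 spots (ADM, GAPDH, HIF1A and PGK1), the spread between spots was largest on siUCA1 A1. Members with a single spot carry no such measure. HIF activity is set largely at the protein level, which the arrays do not read.

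Of 9 HIF targets, 8 were compared and 0 passed with limma in the fit as reported (1 at an unadjusted p under 0.05), against 11.6% of all genes (27.6% unadjusted). The log2 fold change was positive for 3 targets and negative for 5, between -0.45 and 1.04. ADM, which encodes the vasodilator adrenomedullin, was at -0.23, -0.26, -0.21 and 1.16 on sictrl A1, M2, A2 and A3 and at 1.12, 0.85, 0.96 and 1.72 on siUCA1. All siUCA1 arrays were above the first 3 sictrl arrays and 3 of the 4 were below sictrl A3. The log2 fold change was 1.04 (standard error 0.34), which did not pass, and was 1.39 and passed without sictrl A3.

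BNIP3, a mitophagy receptor, had a log2 fold change of -0.45 (standard error 0.20) and was lower on sictrl A1 (5.59) than on any siUCA1 array (5.61 to 5.96). Its other sictrl arrays lay between 6.23 and 6.59, and without sictrl A1 it passed, at -0.65. CA12, a carbonic anhydrase (-0.41), ANKRD37 (-0.37), VEGFA, the angiogenic growth factor (-0.27), and NDRG1 (-0.10) were negative, and KDM3A, a histone demethylase (0.49), and BNIP3L, the relative of BNIP3 (0.25), were positive. Of these, NDRG1 turned positive in 4 of 25 alternative settings and BNIP3L turned negative in 1. The second BNIP3L probe changed by -0.18, against the direction of the first.

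HIF binds the core letters ACGTG or GCGTG on either DNA strand, and RefSeq promoter windows (GRCh38.p14) from 250 bases before to 50 bases after annotated starts were searched for them. Windows were found for 41 of the 47 members. SLC2A3, SLC16A1, PFKFB2, VEGFA, NDRG1 and BNIP3L had none in the table used. On the opposite strand the cores read CACGT and CACGC, and ACGTG and CACGT overlap in CACGTG. At least 1 match was in a window of 34 of the 37 compared members with windows (91.9%), against 70.2% of 9514 genes compared on the arrays and 52.4% of all 27305 genes in the table. Counted by window, the shares were 65.2% for these members, 61.0% for the genes compared and 48.4% for all windows, with median GC contents of 69.0%, 65.0% and 58.7%. Among the 5 members that passed, the windows of HK2, PFKFB4 and PGM2L1 held matches and that of TKT held 0. The genes below were selected to show promoters of members that passed, in each direction and without a match, beside ADM, LDHA and BNIP3, which did not pass with all arrays in the fit as reported. Each stretch of 30 bases lies before the start, is written in the gene's direction, and has matches to the cores on either strand in capitals.
HK2: GCGTGcgCACGTcactgatccggaggcccg
PFKFB4: GCGTGgtcggaggccgggcccctttcagct
PGM2L1: GCGTGgggagcgcgctcccgggctccagtc
TKT: gacttaacgcgcccccgccccgcgcccggc
ADM: GCGTGgctgaggaaagaaagggaaggcaac
LDHA: CACGTGggttcccgCACGTccgccggcccc
BNIP3: CACGTGccaCACGCacccCACGCccctgcg

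The HK2 stretch lies at chr2:74834072-74834101 on the plus strand, from 55 to 26 bases before the start, and that of PFKFB4 at chr3:48556940-48556969 on the minus strand, from 166 to 137 bases before it. The PGM2L1 stretch is at chr11:74398547-74398576 on the minus strand, from 143 to 114 bases before the start, and that of TKT at chr3:53256023-53256052 on the minus strand, directly before it. The ADM stretch is at chr11:10304972-10305001 and the LDHA stretch at chr11:18394476-18394505, both on the plus strand, and that of BNIP3 at chr10:131982028-131982057 on the minus strand. PGM2L1, which was higher in siUCA1, and PFKFB4, which was lower, each held 1 match in the 250 bases before the start. LDHA, with -0.51, held 5 matches before its first start, and BNIP3, with -0.45, held 6. A match of these letters is a description of the window and not a binding site.

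A part of the members varied widely between sictrl arrays. The SD over the 4 sictrl arrays was above the median of all genes for 23 of the 42 members, and over the siUCA1 arrays for 18. The median SD over the 4 sictrl arrays was 0.28 for the 42 members and 0.19 for all genes, whereas over the siUCA1 arrays it was 0.16 for the members and 0.20 for all genes. In sictrl, 10 of the 42 members were among the 10% of genes with the highest SD, compared with 3 in siUCA1. HIF targets had the highest median SD in sictrl of the 9 role groups, at 0.50, with ADM at 0.69, VEGFA at 0.62, NDRG1 at 0.61 and BNIP3L at 0.58. The pyruvate dehydrogenase kinases were close, at 0.49. For 19 HIF targets outside the list the median SD in sictrl was 0.25, so the wide spread was not general to HIF targets. Of the role groups, HIF subunits and hydroxylases had the lowest, at 0.09. No test was made of these spreads.

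A few arrays carried this spread. Sictrl A1 was the lowest sictrl array for 22 of 42 members and sictrl A3 the highest for 26. On sictrl A1, ALDOC was at -0.96 against -0.09 to 0 on the other sictrl arrays, BNIP3L at 1.20 against 2.05 to 2.52, and KDM3A at -2.61 against -1.99 to -1.83. PFKFB4, PDK1, ENO2, BNIP3 and NDRG1 were also lowest there. On sictrl A3, NDRG1 was at 5.89 against 4.52 to 4.91, whereas VEGFA was at 1.68 against 2.89 to 2.94 and PKM at 7.39 against 8.16 to 8.26. HIF targets thus moved in both directions on that array.

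The root mean square deviation of the members from the condition mean was 0.34 on sictrl A1, against 0.23 for all genes, and 0.44 on sictrl A3, against 0.37 for all genes. On siUCA1 A1 it was 0.33, against 0.36 for all genes. There HK1, LDHA and VEGFA were low at their brightest probes, as they were on sictrl A3. The second LDHA probe was low on sictrl A3 but not on siUCA1 A1. On sictrl A1 the surface trend was 0.0925, in the range of the arrays without a strong one. With the remaining surface trend removed from all arrays, PGM2L1 was the member that passed upward, and HK2, PFKFB4 and ENO1 passed downward.

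**Figure D3:**
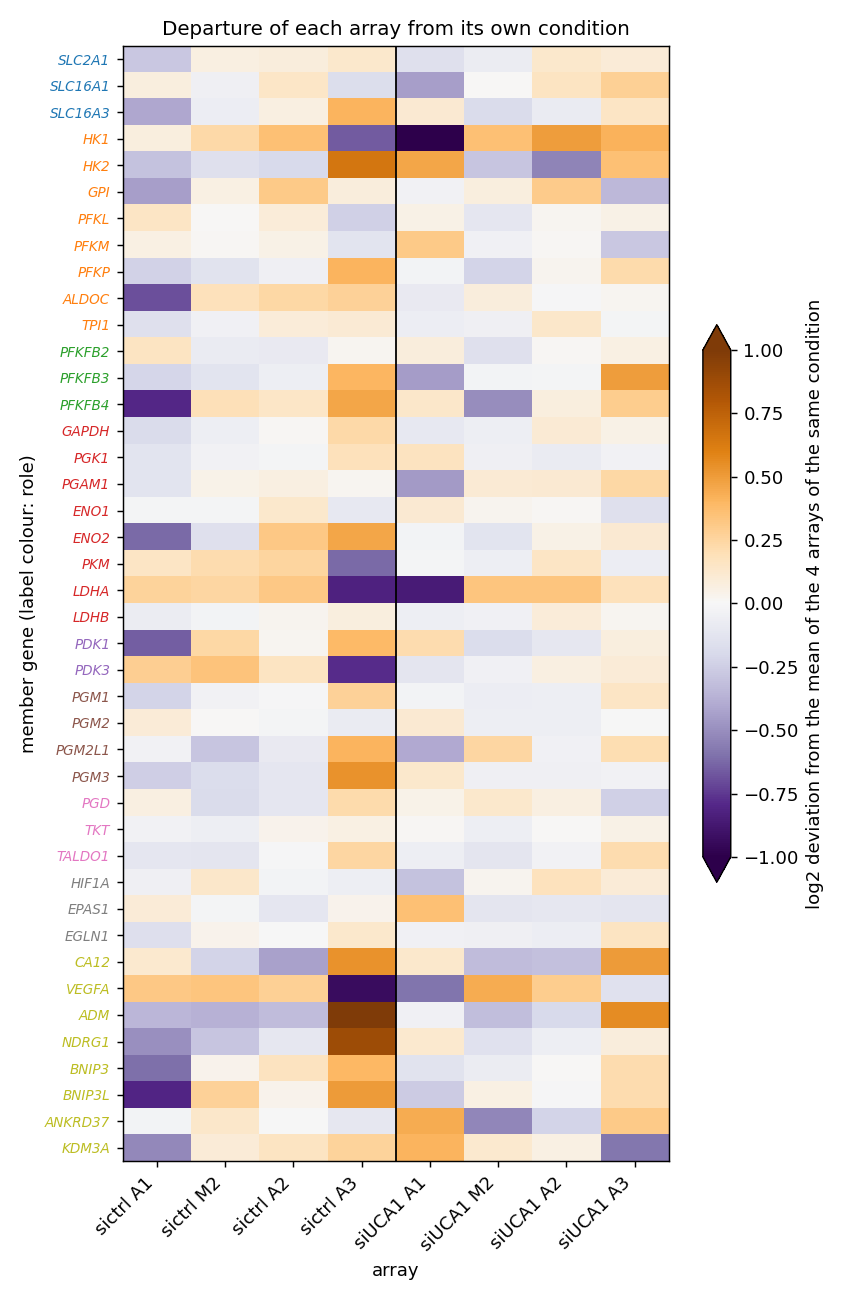
Log2 deviation of each of the 42 members compared (rows, label colors by role) from the mean of the 4 arrays of the same condition, for the 8 arrays (columns), with orange above and violet below the mean and colors saturating at 1 in either direction. Sictrl A1 is low for PFKFB4, PDK1, ENO2, ALDOC, BNIP3 and BNIP3L, and sictrl A3 is high for ADM and NDRG1 and low for LDHA, PDK3 and VEGFA.

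Because sictrl A1, sictrl A3 and siUCA1 A1 weighed on so many members, the counts were also taken without them. Without sictrl A1, 1 member was higher (PGM2L1) and 5 were lower (HK2, PFKFB4, PDK1, ENO2 and BNIP3), while 3.13% of all genes were higher and 3.92% lower. Without both sictrl A3 and siUCA1 A1, 6 members were higher (PGM2L1, SLC16A1, TKT, ADM, GAPDH and PGM3) and 3 were lower (HK2, LDHA and PGAM1), while 12.9% of all genes were higher and 11.4% lower. PGM2L1 and HK2 were in both sets. PFKFB4 did not pass without these 2 arrays (-0.96). HK1 moved from -0.24 to -0.03 there, PKM from 0.28 to 0.08, PDK3 from 0.29 to 0.07 and VEGFA from -0.27 to -0.39, and NDRG1 changed sign, from -0.10 to 0.15. Left out alone, siUCA1 A1 turned HK1 to 0.19 and left VEGFA at -0.08, and without sictrl A3 alone HK1 was at -0.46 and VEGFA at -0.58. The slide held its arrays in 2 rows, with 2 arrays of each condition per row. The log2 fold change of HK2 was -0.76 and -1.93 within the rows. That of PGM2L1 was 2.37 and 2.19 and that of PFKFB4 was -1.02 and -1.12, both with the dimmer condition partly at background. ADM differed more, with 1.65 and 0.44, and LDHA was at -1.13 and 0.11. With the row as a block, PGM2L1, HK2 and PFKFB4 passed, and SLC16A1 and TKT did not.

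**Figure D4:**
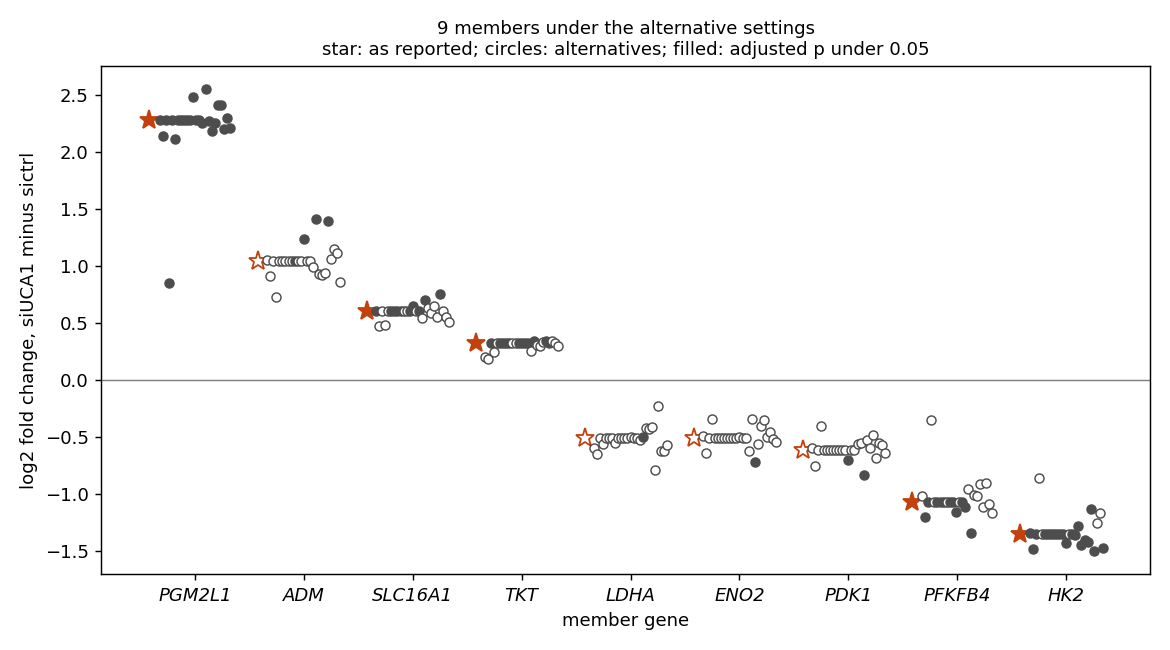
Log2 fold change (siUCA1 minus sictrl, y axis) of 9 members as reported (stars) and under 24 or 25 alternative settings (circles), with filled symbols for an adjusted p under 0.05. PGM2L1 is filled throughout, between 0.85 and 2.55, HK2 is filled in 20 of 25 alternatives, and the signs of these 9 members stay the same.

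Genes of the same pathways that are not on the list were read from lists of 105 further genes, of which 78 were compared. These lists too were written with earlier results of these data known. Their counts and adjusted p are therefore a description and used as support for nothing. With limma, 4 were higher in siUCA1 and 4 lower at an adjusted p under 0.05, and the median log2 fold change was 0.04. Both shares, 4 of 78, were close to the 5.72% and 5.85% of all genes. Of the 13 genes for the entry of pyruvate into mitochondria, 3 rose and 0 fell. PDK4, another pyruvate dehydrogenase kinase, rose by 1.02 (standard error 0.22, adjusted p = 0.0224, limma), with sictrl at 1.38, 0.91, 0.75 and 1.55 on A1, M2, A2 and A3 and siUCA1 at 2.65, 1.93, 1.91 and 2.17. Its change was thus opposite in sign to that of PDK1. PDHA1 (0.35, adjusted p = 0.0473, limma) and PDHX (0.34, adjusted p = 0.0362, limma), subunits of the pyruvate dehydrogenase complex, were selected for mention after their values were seen.

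Of the 26 further HIF targets, 19 were compared, 0 rose and 2 fell, beside 5.72% and 5.85% of all genes. DDIT4, an inhibitor of mTOR that also responds to stress, fell by 1.05 (standard error 0.23, adjusted p = 0.0208, limma), from 2.57, 1.97, 2.27 and 2.37 on sictrl A1, M2, A2 and A3 to 1.91, 0.93, 1.03 and 1.11 on siUCA1. HILPDA, a lipid droplet protein, fell by 0.67 (standard error 0.16, adjusted p = 0.0329, limma), from between 3.91 and 4.24 in sictrl to between 3.21 and 3.85 in siUCA1. Neither overlapped between conditions, and in both genes siUCA1 A1 was the siUCA1 array nearest to sictrl. The median of the 19 targets was 0.06.

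The counts of the smaller lists stand beside the same 5.72% and 5.85% of all genes. Of the 11 further genes of glycolysis and gluconeogenesis that were compared, 0 rose and 1 fell, SLC2A13, a myo-inositol transporter (-0.57, standard error 0.13, adjusted p = 0.0288, limma). Of 7 oxygen-sensing genes, 0 rose and 1 fell, and of 8 pentose phosphate genes, 1 rose and 0 fell. These were VHL, which marks hydroxylated HIF for degradation (-0.46, adjusted p = 0.0173, limma), and RPIA, ribose phosphate isomerase (0.41, adjusted p = 0.0420, limma), both named after their values were seen. Of 20 genes of hexose phosphate, glycogen and hexosamine metabolism, 0 passed, with log2 fold changes from -0.48 to 0.41, and 3 had an unadjusted p under 0.05, against 27.6% of all genes. With 1 array left out, PDK4 passed in 5 of 8 fits and VHL in 5, DDIT4 and SLC2A13 in 3 each, PDHX in 2, and HILPDA, PDHA1 and RPIA in 1 each, HILPDA and PDHA1 without siUCA1 A1 (-0.83 and 0.39) and RPIA without sictrl A3 (0.47).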

How the data were processed

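The 8 arrays (Agilent 8x60k, one-color) of OAW42-R RNA were grouped by their labels into 4 sictrl and 4 siUCA1. The authors deposited the output of Agilent Feature Extraction 10.7.3.1 for each array, an intensity per spot that is background-subtracted, corrected for a surface trend and not normalized between arrays. The deposited table of intensity values for the series held the same numbers (largest relative difference 0).

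From the deposited intensity, log2 values minus the 75th percentile of each array's non-control spots were computed. Control and outlier spots were left out and spots of a probe averaged. Probes had to be well above background on every array of 1 or both conditions (for repeated spots, on more than 50% of them), which left 19045 of 58201, and the brightest kept probe stood for a gene. Symbols came from the RefSeq table of GRCh38.p14 (31104 probes matched). limma 3.58.1 (lmFit, eBayes) in R 4.3.3 compared the conditions with Benjamini-Hochberg adjustment over 15454 genes, and a gene with an adjusted p under 0.05 is said to pass. Standard errors are those of limma, moderated, meaning that each gene's variance is drawn toward that of all genes. Adjusted p measure the spread between these arrays, whose number limits precision, as does background for dim probes. The procedure was tested on simulated data.

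The members and lists were chosen with earlier results of these data known. Values on every array are given for members that passed or whose log2 fold change was 0.5 or more in size (LDHA and ENO2, at -0.51, are just inside, and KDM3A and GPI, at 0.49, just outside), and other pathway genes are named when they passed and changed as much, or as said in the text. For the counts, 26 alternatives in normalization, background, filtering, blocking, weighting, test and left-out arrays were computed. Replicates share names (A1, M2, A2, A3), and whether these pair the arrays was checked. Figures were drawn with matplotlib 3.10.9 in Python 3.11.15. Protein sequences were not used here.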

Additional observations from a re-analysis of the deposited data

Results flagged for a closer look

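For each of the 42 members compared, the 4 values of a condition at the brightest kept probe were checked for a lone extreme value. The measure was the share of their range that parts it from the next value. This share exceeded Dixon's 95% critical value for 4 samples in 14 of 84 sets (16.7%). Chance gives about 1 in 20, and over all genes it was 10.2% of sets, in which sictrl A3 was the distant array in 43.3% and siUCA1 A1 in 31.9%.

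Sictrl A3 was the distant array in 6 of these. It was high for ADM, at 1.16 against -0.26 to -0.21 on the other sictrl arrays (gap over range 0.964), and for HK2, at 1.56 against 0.61 to 0.76 (0.843). It was low for VEGFA, at 1.68 against 2.89 to 2.94 (0.963), for LDHA, at 7.43 against 8.50 to 8.57 (0.939), for PKM, at 7.39 against 8.16 to 8.26 (0.883), and for PDK3, at -0.03 against 0.91 to 1.09 (0.837). At second probes, sictrl A3 was also low for LDHA (5.79 against 6.18 to 6.39) but not for PDK3 (-0.75 against -1.31 to -0.60).

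SiUCA1 A1 was distant in 4 sets. There HK1 was at 1.98 against 3.61 to 3.75 on the other siUCA1 arrays (0.925) and LDHA at 6.89 against 7.93 to 8.08 (0.871), both low, and EPAS1 was at 5.29 against 4.81 to 4.83 (0.959) and PGM3 at 4.42 against 4.24 to 4.25 (0.932), both high. Second probes were not apart there, with LDHA at 5.67 against 5.36 to 5.88 and PGM3 at 2.69 against 2.66 to 2.86.

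On sictrl A1, ALDOC was low, at -0.96 against -0.09 to 0 (0.905), and so was SLC2A1, at 4.10 against 4.44 to 4.50 (0.866). HIF1A was high on sictrl M2, at 5.45 against 5.25 to 5.28 (0.844), and EGLN1 on siUCA1 A3, at 4.16 against 3.93 to 3.96 (0.860).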

How the results depend on the processing

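UCA1 fell and passed in all 25 alternatives for it (-5.46 to -4.85), and PGM2L1 passed in 24. PGM2L1 and PFKFB4 met the detection filter only through their brighter condition and were not compared when detection on all arrays was required, so their calls are no sign of stability. As reported, 3 members were higher, 2 lower, and 8 other pathway genes passed, while 11.6% of all genes passed. With 1 array left out the members higher were 1 to 4, the members lower 0 to 5 and the other pathway genes 1 to 12. In these fits 4.9% to 14.7% of all genes passed. Median scaling gave 1 higher member and 1 other gene, while 2.65% of all genes passed. It moved the median of all genes from 0.03 to -0.106, with 18.0% of the calls higher in place of 49.4%. Members higher, members lower and other genes numbered 1, 0 and 3 with normexp, where 2.46% of all genes passed. They numbered 1, 0 and 0 without a detection filter, where 0.159% of all genes passed. With array weights they numbered 8, 7 and 27, where 31.1% of all genes passed. At an unadjusted p under 0.05, limma gave 4 lower members with normexp, and 4 lower members and 15 other genes without the filter. The plain two-sample test gave 0 lower members (5 unadjusted) and 5 other genes, and detection on all arrays 1 lower member. Of all genes, 10.2% and 12.3% passed there. Without siUCA1 M2 or siUCA1 A2 limma gave 0 lower members (3 and 4 unadjusted), while 5.77% and 4.91% of all genes passed. The slide row as a block gave 1 higher member and 4 other genes, and removal of the remaining surface trend 1 higher member. The shares of all genes were 8.22% and 15%. Without both sictrl A3 and siUCA1 A1 there were 6 higher members and 22 other genes, while 24.3% of all genes passed. The causes of these differences were not tested. By the rule used, the array names were not taken to pair the arrays. The correlations of same-name deviations were 0.0383 to 0.278, against -0.311 to 0.205 between other names. Of the 8 arrays, 5 correlated best with their own name. The experiments were independent, but no label says that a name marks a shared experiment, so pairing is not settled. With the replicate block, which pairs arrays of the same name, 2 members were higher (ADM, PGM2L1) and 2 lower (CA12, HK2). SLC16A1, TKT and PFKFB4 did not pass with it, and 11.2% of all genes passed. Low signal limits PGM2L1 in sictrl and PFKFB4 in siUCA1.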
